A study of Mus musculus with 11 samples.

Results

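The cluster of miR-143 and miR-145a is a pair of neighbouring miRNA genes, Mir143 and Mir145a. Its members were taken by name as every mature miRNA that the deposited table lists for the hairpins miR-143, miR-145a and miR-145b, without use of any measured value. This gave 4 of the 592 miRNAs, mmu-miR-143-3p, mmu-miR-143-5p, mmu-miR-145a-3p and mmu-miR-145a-5p. miR-145b had 0 entries in the table and was not analysed here.

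The 2 genotypes were compared in small RNA libraries of male C57BL/6 mouse embryonic stem (mES) cells in which Trim71, an RNA-binding protein of the early embryo, can be deleted. Trim71fl/fl cells carry conditional alleles that still give Trim71, and Trim71-/- cells were made from them with 4-hydroxytamoxifen (4-OHT), which switches on an inducible Cre recombinase. The labels give 500 nM 4-OHT for 2 days and at least 7 further days of culture for the Trim71-/- cells, while the methods of the study name another concentration and culture time, and DMSO as the solvent control for Trim71fl/fl cells. Cells of both genotypes were grown with serum and LIF and were sorted magnetically for SSEA-1, a surface marker of undifferentiated cells, before harvest.

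The libraries came from 2 clones. Days 1, 5 and 6 each have 1 Trim71-/- and 1 Trim71fl/fl library of clone 1, and days 3 and 4 each have 1 of either genotype of clone E3, which makes 5 same-day pairs. The labels do not say what a day is or whether the cultures of different days were separate, so the tests measure the spread between these pairs, which may be technical. A 6th Trim71fl/fl library, of day 2 and clone E3, has no partner. Its value equals the mean of the other Trim71fl/fl libraries for all 4 members, and it was left out of the tests. Trim71 mRNA is not measured in a miRNA table, so its loss could not be checked in these libraries.

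A miRNA hairpin is cut by Dicer into a short duplex, and 1 strand of it, the guide, is loaded into an Argonaute protein and represses mRNAs that match its seed, while the other strand, the passenger, is mostly degraded. The guide of miR-143 is its 3p arm and that of miR-145a is its 5p arm. Both hairpins are cut from 1 primary transcript that is known from smooth muscle, fibroblasts and other mesenchymal cells, where it acts on the choice between a contractile and a proliferating state. In human embryonic stem cells the miRNA that corresponds to miR-145a-5p is known to repress the pluripotency factors OCT4, SOX2 and KLF4.

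In GRCm38 both genes lie on the minus strand of chromosome 18. GENCODE M21 places Mir145a at chr18:61647825-61647894, a hairpin of 70 bases, and Mir143 at chr18:61649196-61649258, a hairpin of 63 bases, with 1301 bases between them. In that annotation they stand between 2 long non-coding RNA genes. Bvht, on the plus strand, ends 352 bases from Mir145a, and Carmn, on the minus strand, lies 366 bases from Mir143. RefSeq on GRCm38.p6 instead draws Carmn, the host gene of the cluster, from 61645878 to 61665538, so that both hairpins fall inside it. Mir145b lies apart on the same chromosome, at chr18:69022199-69022273, and is not part of the cluster.

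The 4 mature miRNAs of this locus were present at very different levels. The values are normalized read counts of the mature miRNA, which are not scaled for length or for how well a sequence is ligated, so levels of different miRNAs are compared only in broad steps. miR-143-3p, the guide of its hairpin, had a mean over the 10 paired libraries of 23860 and stood 20th among the 592 miRNAs, between 15th and 32nd in single libraries. It held 0.340% to 0.807% of the summed values of a library. miR-145a-5p, the guide of the other hairpin, had a mean of 253 and stood 239th. Both passengers were rare. miR-145a-3p had a mean of 34.8 and stood 444th, and miR-143-5p had a mean of 16.3 and stood 523rd.

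In these read counts, whose order need not be that of the molecules in the cells, the lowest library of miR-143-3p, at 12742, lay above the highest of miR-145a-5p, at 358. The libraries of miR-145a-5p in turn all lay above those of miR-145a-3p. miR-145a-3p exceeded miR-143-5p in 9 of 10 libraries, but their ranges overlapped. The ratio of miR-143-3p to miR-145a-5p within a library ran from 35.6 to 151 in Trim71-/- cells, with a median of 109, and from 48.2 to 237 in Trim71fl/fl cells, with a median of 80.6, so that the genotypes overlapped.

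One property of the deposited values bears on every comparison. After the batch correction of the authors, the Trim71-/- and Trim71fl/fl values of 1 day add up to a constant that does not change between days, to within 0.000277% in the members. Of the 486 miRNAs without a value at the floor of 1 that the authors set, 485 do so to within 0.1%, while in the other 106 a floored value breaks the sum of its pair. A member that is high in one genotype therefore is low in the partner library, its SD is the same in both genotypes, and each day holds 1 independent difference. A member that is higher in Trim71-/- cells on all 5 days then also has groups that do not overlap, so that these are 1 observation and not 2. No value of a member was at the floor.

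miR-143-3p, the abundant guide, did not differ between the genotypes beyond the spread of the pairs. Its values on days 1, 3, 4, 5 and 6 were 26217, 26559, 12742, 34964 and 30508 in Trim71-/- cells. In Trim71fl/fl cells they were 21503, 21161, 34978, 12756 and 17212 on the same days. The day 4 pair of clone E3 and the day 5 pair of clone 1 were near mirror images, with Trim71-/- cells lowest on day 4 and highest on day 5, and the groups overlapped over nearly their whole range. Trim71-/- cells had a mean of 26198 ± 8316 (SD, n = 5), and the mean of Trim71fl/fl cells was 21522 ± 8316 (SD, n = 5). The same-day differences of log2(value + 1), Trim71-/- minus Trim71fl/fl, were 0.29, 0.33, -1.46, 1.45 and 0.83 on days 1, 3, 4, 5 and 6. In limma with the day as a block the log2 fold change was 0.29 (SE 0.45, 95% interval -0.81 to 1.39, adjusted p = 0.773), and the exact two-sided permutation test, which swaps genotypes within days, gave p = 0.625. After division of each library by its total the log2 fold change was 0.02. Relative to the median over all miRNAs it was 0.26 with and without this division, a match that follows from the division, which shifts all miRNAs nearly alike.

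miR-145a-5p, the guide that targets pluripotency factors in human cells, did not pass the test either. It measured 258, 243, 358, 241 and 202 in Trim71-/- cells on days 1, 3, 4, 5 and 6. The Trim71fl/fl values of these days were 248, 263, 148, 264 and 304. The day 4 pair stood apart here too, with the highest Trim71-/- value. Its Trim71fl/fl value was then the lowest, as the equal same-day sums require. On days 1, 3 and 5 the 2 genotypes lay close together, and the groups overlapped. The means were 260.5 ± 58.4 (SD, n = 5) and 245 ± 58.4 (SD, n = 5). The same-day log2 differences were 0.06, -0.11, 1.27, -0.13 and -0.59, above 0 on 2 of 5 days. The limma log2 fold change was 0.10 (SE 0.34, 95% interval -0.72 to 0.92, adjusted p = 0.892), and the exact permutation gave p = 0.9375. After division of each library by its total the log2 fold change was -0.17, with Trim71-/- cells higher on 1 of 5 days. Relative to the median over all miRNAs it was 0.07 with and without this division, which again follows from the division itself.

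miR-145a-3p, the passenger of miR-145a, was the member with the steadiest difference. Its values in Trim71-/- cells were 39.3, 41.8, 44.3, 35.3 and 45.8 on days 1, 3, 4, 5 and 6, and in Trim71fl/fl cells 30.4, 27.9, 25.3, 34.4 and 23.9. Trim71-/- cells were higher on 5 of 5 days and the groups did not overlap, although on day 5 they nearly met. Of all 592 miRNAs, 31 (5.24%) were higher in Trim71-/- cells on all 5 days, and the same 31 (5.24%) had groups that did not overlap in this direction, so that 1 of the 4 members stands among them. The means were 41.3 ± 4.17 (SD, n = 5) and 28.4 ± 4.17 (SD, n = 5), a ratio of 1.46. The same-day log2 differences were 0.36, 0.57, 0.78, 0.04 and 0.91.

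The test of miR-145a-3p did not pass. In limma its log2 fold change was 0.53 (SE 0.25, 95% interval -0.09 to 1.15, unadjusted p = 0.0801, adjusted p = 0.607), and the exact permutation gave p = 0.0625, the smallest two-sided p that 5 pairs allow, so that this test cannot reach 0.05. The SE was among the lower ones, with 8.45% of the 592 miRNAs below it. The difference depends on the scale of the libraries. After division of each library by its total, Trim71-/- cells exceeded their partners on 4 of 5 days, the groups overlapped, and the log2 fold change was 0.27, while the median over all miRNAs moved from 0.03 to -0.24. Relative to that median its log2 fold change was 0.51 on both scales, a match that follows from the division, which shifts all miRNAs nearly alike. Without the day 5 pair the log2 fold change of the undivided values was 0.66 at an unadjusted p of 0.0489 in limma. This passes the thresholds named below, as 30 of the 592 miRNAs did in that fit, miR-145a-3p included, and the adjusted p was 0.717.

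miR-143-5p, the passenger of miR-143, was the lowest and most variable member. It measured 6.52, 17.6, 24.8, 18.9 and 5.88 in Trim71-/- cells on days 1, 3, 4, 5 and 6, and 26.0, 15.0, 7.72, 13.6 and 26.7 in Trim71fl/fl cells. It was low in Trim71-/- cells on days 1 and 6, both of clone 1, and high on day 4, and the groups overlapped. The means were 14.7 ± 8.26 (SD, n = 5) and 17.8 ± 8.26 (SD, n = 5). The same-day log2 differences were -1.85, 0.22, 1.56, 0.44 and -2.01, above 0 on 3 of 5 days. The limma log2 fold change was -0.33 (SE 0.60, 95% interval -1.80 to 1.15, adjusted p = 0.829), and the exact permutation gave p = 0.6875. At such a level, adding 1 before the logarithm understates a change.

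**Figure D1:**
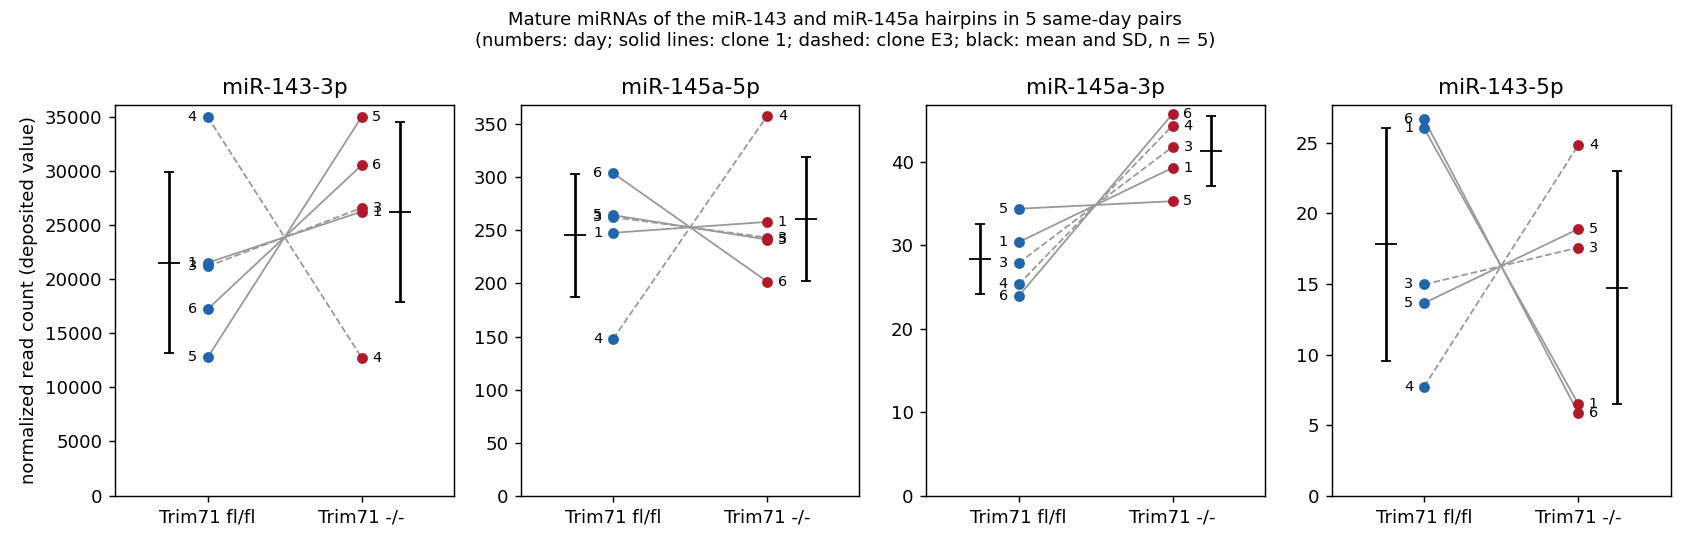
Normalized read counts of the 4 mature miRNAs in the 5 Trim71fl/fl (blue) and 5 Trim71-/- (red) libraries, on linear axes that start at 0 and differ between panels. Lines join libraries of 1 day (solid for clone 1, dashed for clone E3), numbers give the day, and black marks give the mean and SD (n = 5). The lines of each panel cross in 1 point because same-day values add up to a fixed total, and only miR-145a-3p rises along all 5 lines, from 23.9 to 34.4 in Trim71fl/fl cells to 35.3 to 45.8 in Trim71-/- cells.

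The members were then read against the whole table. The study took miRNAs as changed past a 1.5-fold difference at an unadjusted p below 0.05. By these thresholds limma called 32 of 592 miRNAs (5.41%), 5 higher and 27 lower in Trim71-/- cells, and 0 of the 4 members. At an adjusted p under 0.05 limma called 0 of 592 (0%), with a lowest adjusted p of 0.607, while the unadjusted p was under 0.05 in 32. With 1 pair left out, the 32 became 16 without day 1, 19 without day 6 and 67 without day 4. Leaving out a pair also turned the log2 fold change of miR-143-3p to -0.00436 (without day 5), of miR-145a-5p to -0.19 (without day 4) and of miR-143-5p to 0.05 or 0.0948 (without day 1 or day 6). The members' log2 fold changes over all 5 pairs ran from -0.33 to 0.53 beside a median of 0.03 over all miRNAs, whose middle 50% ran from -0.42 to 0.44. The intervals leave room for changes in the guides of more than the 1.5-fold threshold, 0.58 on the log2 scale, in either direction.

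**Figure D2:**
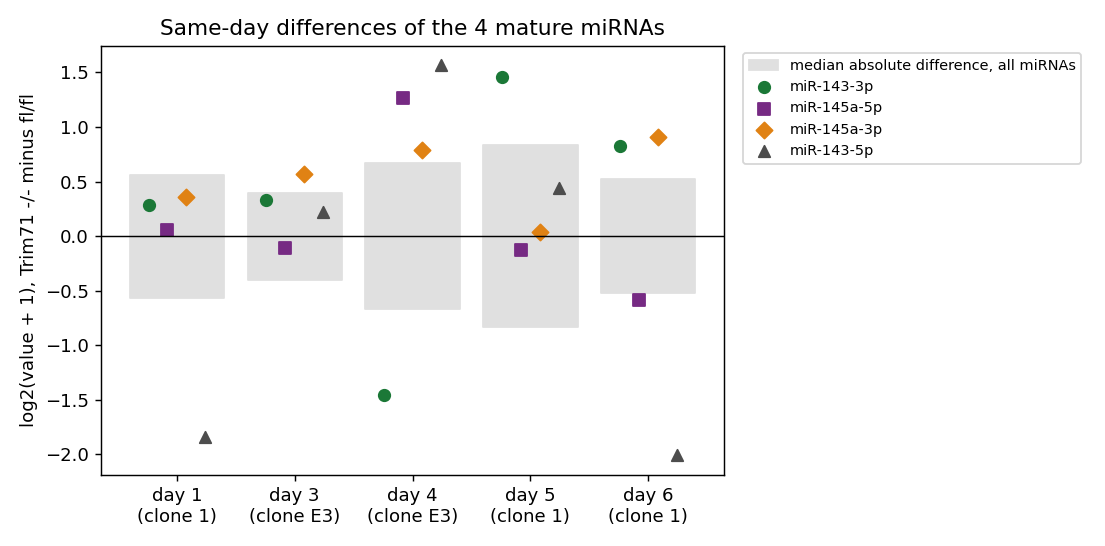
Same-day differences of log2(value + 1), Trim71-/- minus Trim71fl/fl, for the 4 mature miRNAs by day and clone, with 1 point for each member and day. Grey boxes reach the median absolute difference of all 592 miRNAs on that day above and below 0, which ran from 0.40 on day 3 to 0.83 on day 5. On day 4, miR-143-3p lies at -1.46 while the other members lie at 0.78 to 1.56.

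The members did not move together from day to day. On day 4 the 3 rarer miRNAs were higher in Trim71-/- cells and miR-143-3p was lower, and on day 6 miR-143-3p and miR-145a-3p were higher while miR-143-5p and miR-145a-5p were lower. The guides of the 2 hairpins, which share a primary transcript, differed in the same direction on 1 of 5 days. As a measure of likeness, the root mean square distance between the 5 same-day log2 differences of 2 miRNAs was taken, in which all values are coupled by library and batch correction. It was 0.78 between the 2 arms of miR-145a and 2.13 between the 2 arms of miR-143, where the median distance of miR-143-3p to all other miRNAs was 1.41. In the order of likeness to miR-143-3p, miR-145a-3p came 205th, miR-145a-5p 345th and its own passenger 464th. In the order of likeness to miR-143-5p, miR-145a-5p came 44th, miR-145a-3p 278th and miR-143-3p 429th. In that to miR-145a-3p, miR-145a-5p came 126th, miR-143-3p 309th and miR-143-5p 417th, and in that to miR-145a-5p, miR-145a-3p came 138th, miR-143-5p 264th and miR-143-3p 389th.

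For each member the 3 miRNAs with the smallest distances in the whole table were listed. Being picked in this way, they lie closer than its neighbours in the cluster, which says little about the cluster. Nearest to miR-143-3p were miR-708-3p at a distance of 0.177, miR-148a-3p at 0.337 and miR-92b-5p at 0.342. Nearest to miR-145a-5p were miR-30b-3p at 0.281, miR-15b-3p at 0.284 and miR-7b-5p at 0.287. For miR-145a-3p these were miR-378a-5p at 0.263, miR-3963 at 0.308 and miR-24-2-5p at 0.321, and for miR-143-5p miR-465a-5p at 0.551, miR-463-3p at 0.729 and miR-324-3p at 0.739. These distances describe 5 pairs among 592 miRNAs and were not tested.

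The balance of the arms was compared within each hairpin, since both arms come from the same precursor. In miR-143 the guide dominated in every library, at 99.8% to 99.98% of the 2 arms in Trim71-/- and 99.8% to 99.98% in Trim71fl/fl cells. The ratio of 3p to 5p ran from 514 to 5192 in Trim71-/- cells (median 1851) and from 646 to 4529 in Trim71fl/fl cells (median 935), and the groups overlapped. The change of the 3p arm minus that of the 5p arm, in log2 same-day differences, was 2.13, 0.11, -3.02, 1.01 and 2.83 on days 1, 3, 4, 5 and 6. Its mean was 0.61 (SD 2.28, n = 5, above 0 on 4 of 5 days), at an exact two-sided permutation p of 0.5625, also after adjustment over the 2 hairpins. It was 1.52 without day 4, 0.23 without day 1 and 0.06 without day 6, so that single pairs moved it both ways. In clone 1 alone it was 1.99, above 0 on 3 of 3 days, and in clone E3 alone -1.46.

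In miR-145a the passenger kept a larger share. The 3p arm made up 11.02% to 18.5% of the 2 arms in Trim71-/- cells, 14.0% ± 2.81 (SD, n = 5), and 7.29% to 14.6% in Trim71fl/fl cells, 10.8% ± 2.69 (SD, n = 5). The share was higher in Trim71-/- cells on days 1, 3, 5 and 6 and lower on day 4, and the groups overlapped. The change of the 3p arm minus that of the 5p arm was 0.30, 0.68, -0.49, 0.17 and 1.5 on the log2 scale, with a mean of 0.43 (SD 0.73, n = 5), and the exact two-sided permutation gave p = 0.3125 (0.5625 after adjustment over the 2 hairpins). This mean was 0.66 without day 4 and 0.17 without day 6. A difference in arm balance between the genotypes was not shown for either hairpin. With 5 pairs the exact permutation cannot give a two-sided p under 0.0625, so it could not have reached 0.05.

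**Figure D3:**
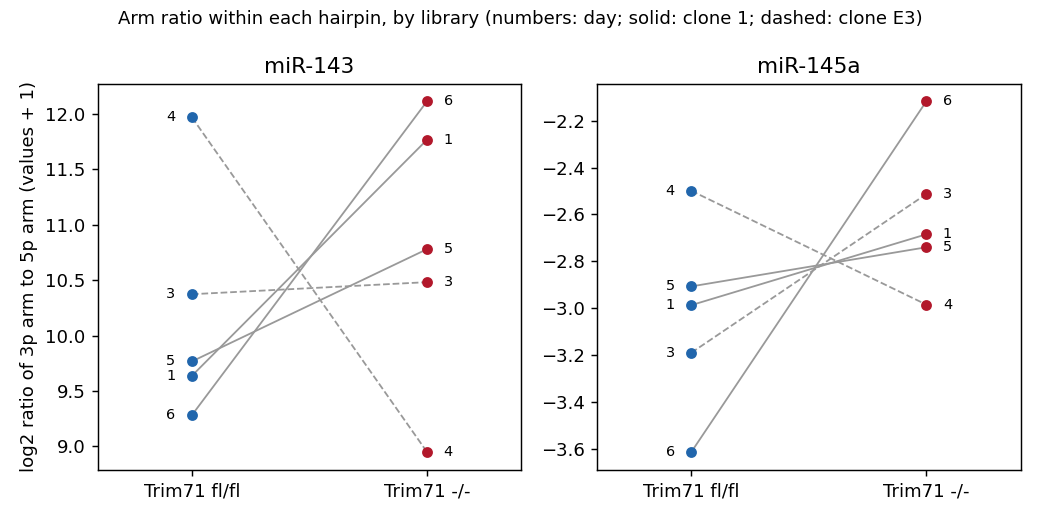
Log2 ratio of the 3p to the 5p arm (values + 1) of miR-143 and miR-145a in each paired library, with lines joining the libraries of a day (solid for clone 1, dashed for clone E3) and numbers giving the day. The ratio was above 0 throughout in miR-143 and below 0 throughout in miR-145a, and the day 4 line falls in both panels while the other 4 rise.

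The 2 clones were then set side by side. In clone 1, miR-143-3p exceeded its Trim71fl/fl partner on 3 of 3 days, with a mean log2 difference of 0.86, and in clone E3 on 1 of 2 days, with a mean of -0.56. miR-143-5p ran the other way, at -1.14 in clone 1 and 0.89 in clone E3. The interaction of genotype and clone in limma was -1.42 for miR-143-3p (clone E3 minus clone 1, SE 0.78, 95% interval -3.40 to 0.56, adjusted p = 0.627) and 2.03 for miR-143-5p (SE 0.99, 95% interval -0.49 to 4.54, adjusted p = 0.627). Neither difference passed the test. Leaving out day 3 or day 4 leaves 1 pair of clone E3, which is then assumed to vary like the pairs of clone 1. Without day 4 the interactions were -0.53 for miR-143-3p and 1.36 for miR-143-5p, and without day 3 that of miR-143-3p was -2.31. Without day 5 that of miR-143-5p was 2.82 (limma, unadjusted p = 0.0161, adjusted p = 0.775). In that fit 28 of 592 miRNAs had an unadjusted p under 0.05.

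The miR-145a arms did not pass the test of a clone difference either. miR-145a-3p was higher in Trim71-/- cells on all days of both, by 0.44 in clone 1 and 0.68 in clone E3 (limma interaction 0.24, 95% interval -1.18 to 1.67, adjusted p = 0.851; 0.04 without day 5 and 0.48 without day 6). miR-145a-5p gave -0.22 in clone 1 and 0.58 in clone E3 (limma interaction 0.80, 95% interval -0.87 to 2.47, adjusted p = 0.670; 1.49 without day 3 and 0.11 without day 4).

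Because the cluster marks mesenchymal cells, miRNAs of other cell types were measured in the same libraries. In such bulk RNA, fewer cells of a type and less RNA per cell cannot be told apart. The embryonic stem cell list, the hairpins of miR-290 to miR-295 and of miR-302 and miR-367, held 55.5% to 59.8% of the summed values in every library. Of its 27 miRNAs 0 were called, with 13 fitted above 0 and 14 below. Its miR-302 and miR-367 miRNAs were all fitted below 0, from -1.85 (miR-302c-5p) to -0.28 (miR-302b-3p). Of the muscle list, miR-133a, miR-133b, miR-206, miR-208a and miR-208b had no entry in the table, and its 4 listed miRNAs summed to 409 to 531 in Trim71-/- and 320 to 442 in Trim71fl/fl cells, with 0 called, 4 fitted above 0 and a median log2 fold change of 0.34. The 4 endothelial miRNAs, of the miR-126 hairpins, summed to 5148 to 6798 and 4867 to 6516, respectively, with 0 called, 2 fitted above 0 and 2 below, and a median of -0.08. The 6 blood miRNAs summed to 1156 to 2872 and 2331 to 4091, with 1 of them called lower where 5.41% of the whole table was called in either direction. Of these 6, 1 was fitted above 0 and 5 below, with a median of -0.91, and miR-144 and miR-223 had no entry.

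The fibroblast or mesenchymal list was the one closest to the cluster. Of its 14 hairpins 13 were listed, all but miR-214, with 22 mature miRNAs, of which limma called 0 higher and 0 lower against the 5.41% of the table. Their median log2 fold change was 0.30, with 17 fitted above 0 and 5 below. The sum of the list was 272081 to 832361 in Trim71-/- and 30049 to 385878 in Trim71fl/fl cells. In 9 libraries miR-21a-5p, a miRNA of proliferating and stressed cells, made up 85.3% to 96.5% of it. In the Trim71fl/fl library of day 5, which gives the lowest sum, miR-21a-5p was at the floor of 1, beside 796335 in its partner. Its fitted log2 fold change of 3.90 (SE 3.00, limma adjusted p = 0.645) rests on that floored value, and the mean same-day log2 difference of the other 4 pairs was 0.23. The next highest, miR-22-3p and miR-140-3p, a miRNA of cartilage, had log2 fold changes of -0.04 (limma adjusted p = 0.991) and 0.03 (limma adjusted p = 0.988). For miR-22-3p the same-day log2 differences were 1.64, 2.27, -4.32, 0.12 and 0.09 on days 1, 3, 4, 5 and 6.

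Without miR-21a-5p, the other 21 miRNAs of the list summed to 9435 to 49129 in Trim71-/- cells and 16879 to 56648 in Trim71fl/fl cells. Trim71-/- cells exceeded their partners on 4 of 5 days, by log2 ratios of 1.25, 1.54, -2.59, 0.26 and 0.14 on days 1, 3, 4, 5 and 6. Of these values 78.0% were miR-22-3p, whose same-day log2 difference was -4.32 on day 4, so that the sum follows 1 miRNA. Counted one by one, 12 of the 22 miRNAs of the list were above 0 on day 4 and 10 below, with a median of 0.35, on the day when miR-143-3p was at -1.46. The part of other cells in the values of the cluster was not tested.

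**Figure D4:**
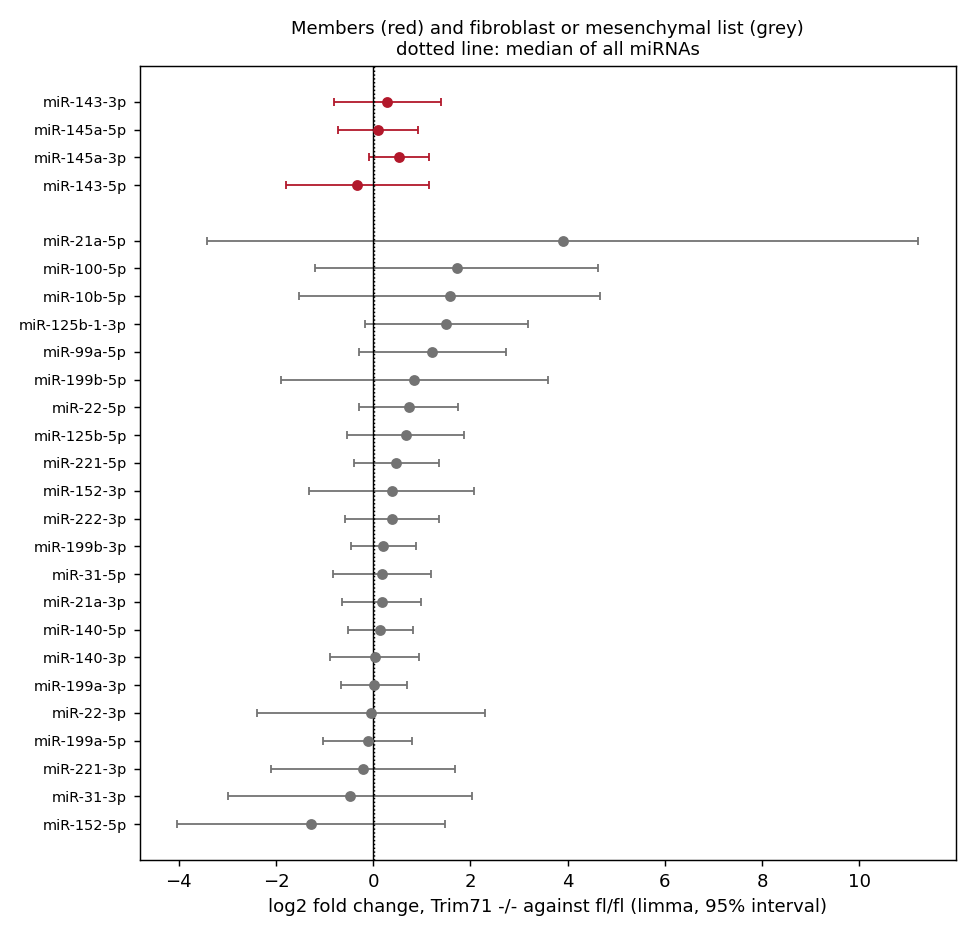
Log2 fold changes, Trim71-/- against Trim71fl/fl, with 95% intervals from limma on 5 pairs, for the 4 members of the cluster (red) and the 22 miRNAs of the fibroblast or mesenchymal list (grey, in order of fold change), with a dotted line at the median of all 592 miRNAs. All intervals shown include 0, and the widest is that of miR-21a-5p, which has a value at the floor.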

How the data were processed

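The table holds 11 small RNA libraries. According to the methods of the study, 50 bp reads were trimmed and aligned to an mm10 reference taken from miRBase v20 with Bowtie2, and counted per miRNA. The authors applied DESeq2 normalization and a batch correction, set a floor of 1 and kept miRNAs with a group mean of at least 10. What was deposited is thus a signal, in units of normalized read counts. The processing notes of the submitters also name Bowtie2 2.2.1 and Partek 6.6. Read depth is unknown, and precision comes from the 5 pairs alone.

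Values of the 10 paired libraries were tested as log2(value + 1) with limma 3.58.1 in R 4.3.3 (lmFit, eBayes without trend), with genotype and day as factors, over all 592 miRNAs, with Benjamini-Hochberg adjustment. The day pairs the libraries in the labels. Across miRNAs, partners of a day deviated from the group means with correlations of -0.65 to -0.41, a sign set by the equal same-day sums. Single values were tested by exact permutation within days. In a simulation of 592 miRNAs with independent noise and without equal same-day sums, 100 were given a true log2 fold change of 3. Of these 94 passed the thresholds, with 20 false calls among the rest. That change is larger than any fitted in the members, so the simulation does not show how well smaller changes would be found.

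The text names all members, for each member the 3 miRNAs nearest in pattern, and the 3 most abundant miRNAs of the fibroblast or mesenchymal list. Members and lists were chosen with earlier results of these data known. Alternatives were other blocks and scalings, clones alone, pairs left out, pseudocounts of 0.1 and 10, untransformed values, limma with trend and a mean of at least 100. Refits of the clone interaction were added after seeing the data. Positions came from GENCODE M21 and RefSeq. Plots were drawn with matplotlib 3.10.9.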

Additional observations from a re-analysis of the deposited data

Results flagged for a closer look

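The share of the 3p arm in miR-143 had 1 library apart from the others of its group. In the Trim71-/- library of day 4 (clone E3) it was 99.8%, with a 3p to 5p ratio of 514, and the gap to the next library made up 0.732 of the range of the 5 Trim71-/- libraries. Chance alone marks about 1 in 20 independent groups in this way. This was 1 of 12 groups checked, and these were not independent, because the equal same-day sums give both genotypes of a member the same relative gap. The difference in arm balance is given above with and without that pair.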

How the results depend on the processing

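The direction of miR-145a-3p held under all 17 alternatives, with log2 fold changes of 0.27 to 0.68. Its same-day differences were above 0 on all 5 days, so only the alternatives that rescale the libraries could have turned it. The direction of the other members did not hold throughout. miR-143-3p turned to -0.56 in clone E3 alone and ran from -0.00436 to 0.72 with 1 pair left out, lowest without day 5, and division by library totals moved it to 0.02. miR-143-5p turned to 0.89 in clone E3 alone and ran from -0.80 to 0.0948, above 0 without day 1 (0.05) or day 6 (0.0948), with -0.58 after division by totals. miR-145a-5p turned to -0.22 in clone 1 alone, -0.17 after division by library totals and -0.15 by totals without miR-290 to miR-295, and ran from -0.19 (without day 4) to 0.27. With 1 pair left out miR-145a-3p ran from 0.44 to 0.66. Without the replicate block its log2 fold change stayed 0.53, at a limma adjusted p of 0.0980, and 0.0378 with all 11 libraries, of which 1 is a mean of others. These 2 fits, and that with clone in place of day, treat the libraries of a day as independent, although each day holds 1 independent difference. Their p-values are therefore too small, and their counts below rest on such p-values. Over all alternatives the limma adjusted p of miR-145a-3p ran from 0.0378 to 0.990. Against 32 of 592 miRNAs past the thresholds there were 101 without the block and 93 with clone in place of day. All 11 libraries gave 116, clone 1 alone 59 and division by totals 49. With a pair left out there were 16 (without day 1) to 67 (without day 4), 19 without day 6. The filter at a mean of at least 100 tested 329 miRNAs, of which 15 passed. At an adjusted p under 0.05 there were 9 without the block, 36 with 11 libraries, and 1 each in clone 1 alone and on untransformed values, against 0. The miR-143 arm difference was -1.46 in clone E3 alone, 1.99 in clone 1 alone and 0.06 to 1.52 with a pair left out, that of miR-145a 0.17 to 0.66, with 0.10 in clone E3 alone. With a pair left out the clone interaction ran from -2.31 (without day 3, on 1 pair of clone E3) to -0.53 for miR-143-3p and from 1.36 to 2.82 for miR-143-5p, and the latter was 1.24 at a pseudocount of 10. The filter at 100 gives no value for miR-143-5p and miR-145a-3p. The causes were not tested.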
